A study of Homo sapiens with 48 samples.

Results

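The comparison sets 22Rv1 prostate cancer cells whose only functional Mediator kinase is CDK19 against cells whose only functional Mediator kinase is CDK8, both under vehicle. It uses 6 of the 48 RNA-Seq libraries of the series, 3 of dKO-19 and 3 of dKO-8, chosen by the line and treatment in their labels, and all 20009 genes that passed the filter on low counts. 22Rv1 is a human castration-resistant prostate cancer line. In all 6 libraries both kinase genes had been knocked out by CRISPR/Cas9 (Rv1-dKO), 1 active kinase had been put back by lentivirus, and the cells were kept in androgen-containing medium (with FBS, fetal bovine serum) and 0.1% DMSO for 72 hours. dKO-19 was made from Rv1-dKO by transduction with wild-type CDK19, and dKO-8 from dKO-V, the derivative of Rv1-dKO with the empty lentiviral vector, by transduction with wild-type CDK8. Each kinase state is therefore 1 transduced population with its own history. The study's immunoblots found CDK8 protein in dKO-8 below, and CDK19 protein in dKO-19 well above, the parental level, so that which kinase a line holds, how much of it, and the history of the line cannot be told apart in these 6 libraries. The other libraries used below are, first, of the same lines with 500 nM SNX631, an inhibitor of both kinases, for 72 hours. Next are those of dKO-8M and dKO-19M, which carry kinase-dead versions of the same proteins in the same double-knockout background. The last are of the parental Rv1-WT and its luciferase-carrying subline Rv1-Luc. The libraries of dKO-8M, dKO-19M, Rv1-WT and Rv1-Luc compared below were under vehicle, 0.1% DMSO for 72 hours. Each of these groups has 3 FBS libraries.

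CDK8 and CDK19 are paralogous cyclin-dependent kinases. Either one pairs with cyclin C (CCNC) and joins MED12 or MED12L and MED13 or MED13L to form the kinase module of Mediator, the complex that links transcription factors to RNA polymerase II. The module is known for amplifying transcription that is already being induced, including that by signal-responsive factors. In prostate cancer CDK19 is the more abundant paralog.

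Libraries of dKO-8 held 19.7 to 26.3 M counts and those of dKO-19 21.1 to 24.8 M. Levels are given as CPM, counts relative to 1 M effective counts of the library, where the effective total includes a TMM factor (edgeR's correction for composition) of 0.965 to 0.9705 in dKO-8 and 0.9113 to 0.9248 in dKO-19. Summed markers of luminal prostate epithelium lay between 5160 and 5380 CPM in all 6 libraries, and those of basal epithelium and leukocytes below 0.7 CPM. A list of 7 plasma cell markers, of which 5 were tested, summed to 123 to 129 CPM in dKO-8 and 166 to 174 CPM in dKO-19 (SDC1, IGKC, JCHAIN, IGHA1 and IGHG1). All immunoglobulin genes together were at only 5.65 to 6.38 CPM in dKO-8 and 8.46 to 9.7 CPM in dKO-19. Most of the sum therefore came from SDC1 and JCHAIN, which are not immunoglobulin genes. The endothelial marker PECAM1 was at 0 to 0.118 CPM in dKO-8 and 0.359 to 0.523 CPM in dKO-19, and fibroblast markers summed to 5.49 to 7.05 and 4.28 to 5.58 CPM. Their part in the results below was not tested.

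The kinase genes were examined first, because their transcripts check the labels. CDK8 was at 71.4, 67.4 and 67.1 CPM in the 3 dKO-8 libraries and at 26.1, 28.1 and 28.9 CPM in dKO-19. All 3 dKO-8 libraries were above all 3 dKO-19 libraries, and the log2 fold change of dKO-19 against dKO-8 was -1.31 (SE 0.051, adjusted p = 2.34e-29). CDK19 was at 101 to 105 CPM in dKO-8 and at 507, 519 and 505 CPM in dKO-19, a log2 fold change of 2.31 (SE 0.0438, adjusted p = 4.27e-45), again without overlap. Both genes thus went the way of their labels. The counts cannot separate the edited endogenous transcript from the introduced one, so the remaining reads of the other kinase in each line say nothing about its protein.

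The rest of the kinase module differed little between the lines. Cyclin C was at 49.2 to 50.4 CPM in dKO-8 and 59.5 to 62.7 CPM in dKO-19, a log2 fold change of 0.30 (SE 0.0469, adjusted p = 6.6e-07), which passed the limit on FDR but not the 1.5-fold limit. MED12 (0.05), MED13 (-0.24), MED13L (-0.03) and MED12L (-0.24) had log2 fold changes with adjusted p of 0.0164 or above. Of the 26 core Mediator subunits tested none was called by edgeR or by DESeq2, with a median log2 fold change of -0.04, against 5 higher and 9 lower at an unadjusted p under 0.05. Of all 20009 genes tested, 8296 were at an unadjusted p under 0.05, so that such members are common in any list.

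A gene was called if it differed more than 1.5-fold with an FDR below 0.01, which are the study's limits, by edgeR's quasi-likelihood test and Benjamini-Hochberg adjustment, which also gives every adjusted p below. Of the 20009 genes, 1302 were called, which is 6.51% of those tested. In dKO-19, 621 genes (3.1%) were higher and 681 (3.4%) were lower than in dKO-8. The split moved with the settings: it was 513 higher and 887 lower with library size alone as the scaling, 252 and 192 in a test against 1.5-fold, and 3421 and 3189 at an FDR under 0.05 with no fold limit. The median change of the called genes was 0.946 on the log2 scale, without regard to sign. Changes over 2-fold were seen in 593 of them, over 4-fold in 170 and over 8-fold in 49. The median log2 fold change of all genes tested was -0.003. The 3 libraries of one line did not overlap with those of the other in 46.9% of all genes, so that the absence of overlap alone says little about a single gene.

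**Figure D1:**
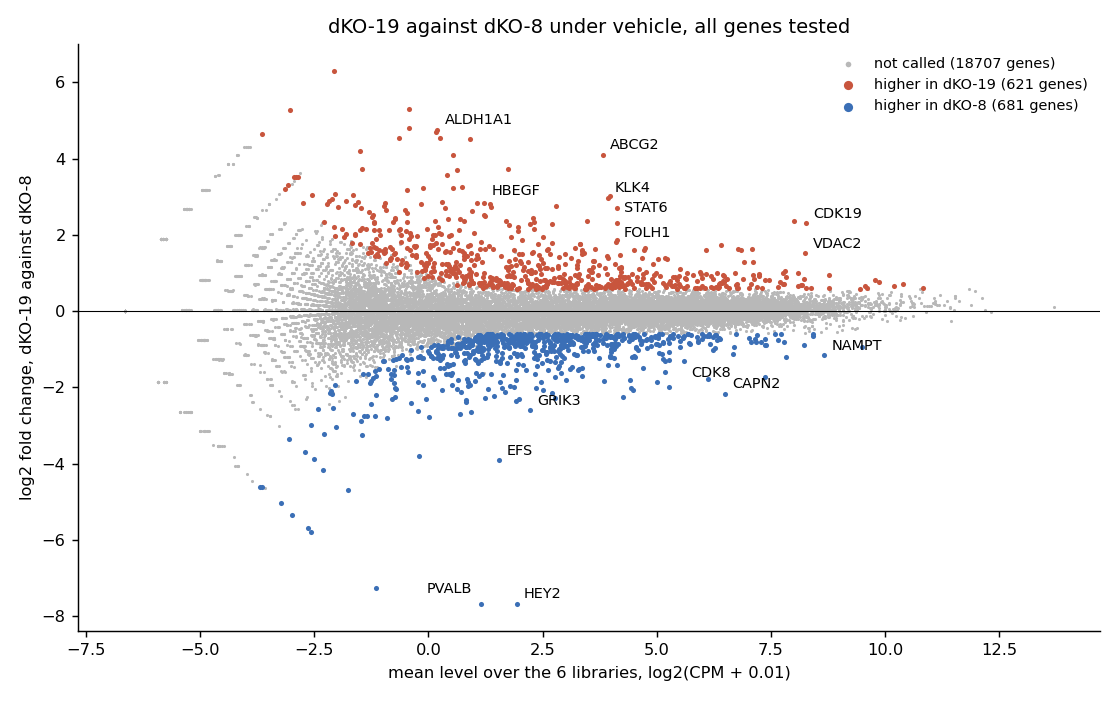
Each point is 1 of 20009 genes, with its mean level over the 6 vehicle libraries on the x axis as log2(CPM + 0.01) and its log2 fold change of dKO-19 against dKO-8 on the y axis. The 621 genes called higher in dKO-19 are red, the 681 called higher in dKO-8 blue, and the rest grey; the fitted values of PVALB and HEY2, at -7.68 and -7.67, rest on at most 2 counts in any dKO-19 library.

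Among the 15 named genes higher in dKO-19 with the lowest p, CDK19 itself was followed by VDAC2, a channel of the outer mitochondrial membrane. VDAC2 was at 161, 158 and 153 CPM in dKO-8 and at 464, 450 and 438 CPM in dKO-19, a log2 fold change of 1.52 (SE 0.039, adjusted p = 3.01e-38). STAT6, the transcription factor of interleukin-4 and interleukin-13 signalling, was at 4.17 to 4.94 CPM in dKO-8 and 29.4 to 31.7 CPM in dKO-19, with a log2 fold change of 2.70 (SE 0.0772). F3, tissue factor, the cell-surface starter of coagulation, was at 38.1 to 40.4 against 129 to 132 CPM (log2 fold change 1.74, SE 0.0602). In each of the 3 genes the gap between the lines was many times the range of the libraries within a line.

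Metabolic enzymes were among the same 15. FADS1, a desaturase in the synthesis of polyunsaturated fatty acids, was at 178 to 185 CPM in dKO-8 and 354 to 370 CPM in dKO-19 (log2 fold change 1.00, SE 0.038). GLUL, glutamine synthetase, was at 207 to 216 and 381 to 387 CPM (0.85, SE 0.0365). PRDX1, a peroxiredoxin that removes peroxides, was at 53.9 to 58.0 and 170 to 176 CPM (1.61, SE 0.0615). CDKN1A, which encodes the cyclin-dependent kinase inhibitor p21, was at 140 to 147 CPM in dKO-8 and 288 to 316 CPM in dKO-19 (log2 fold change 1.07, SE 0.0469). TBX3, a T-box transcription factor, was at 67.4 to 70.7 and 170 to 173 CPM. The membrane proteins STOM (log2 fold change 1.10), NPR3, the clearance receptor of natriuretic peptides (1.39), and EPDR1 (1.67) were in the group as well, with KLK4 and FOLH1, described with their lists below. Adjusted p ran from 4.27e-45 for CDK19 to 8.94e-25 for NPR3. Counts of EPDR1 were fractional in 45.8% of the 48 libraries and those of FADS1 in 37.5%, and their levels are less certain if, as is assumed here, fractions arise from reads divided between genes or positions.

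Genes higher in dKO-8 were led by CAPN2, the catalytic subunit of the protease m-calpain. CAPN2 was at 148, 146 and 147 CPM in dKO-8 and at 32.8, 33.8 and 31.8 CPM in dKO-19, a log2 fold change of -2.16 (SE 0.06, adjusted p = 1.18e-36). NAMPT, the rate-limiting enzyme of NAD salvage from nicotinamide, was at 554 to 571 against 248 to 254 CPM (log2 fold change -1.15, SE 0.0355, adjusted p = 1.91e-34). TAGLN2, an actin-binding protein, was at 106 to 108 against 30.1 to 33.4 CPM (-1.76, SE 0.0549). In these 3 genes, too, the libraries of a line lay close together and far from those of the other line.

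The other genes of this group belong to several classes. Transcription factors in it were ZBTB7C (log2 fold change -2.25, SE 0.0969) and NFIX (-1.11, SE 0.0549). Counts of NFIX were fractional in 33.3% of libraries. CERK, the kinase that makes ceramide 1-phosphate, was at 58.8 to 64.3 CPM in dKO-8 and at most 16.1 CPM in dKO-19, and PPP2R2C, a regulatory subunit of protein phosphatase 2A, at 34.5 to 36.8 and 7.96 to 8.99 CPM. Of matrix and surface proteins, SPOCK1, a proteoglycan, had a log2 fold change of -1.85, ANOS1, an extracellular adhesion protein, of -2.02, and PLXNA2, a semaphorin receptor, of -1.21. IFT27, a part of the transport machinery of cilia (-1.61), and the Golgi protein GOLM1 (-0.94) were also in it.

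The largest fold changes were in genes nearly silent in 1 of the lines. Among genes with a mean of at least 1 CPM, the 5 with the largest change upward were ALDH1A1, a retinaldehyde dehydrogenase, FBLIM1, a filamin-binding protein, PLEKHB1, the drug efflux transporter ABCG2, and IFI44L. ABCG2 was at 1.49, 1.93 and 1.29 CPM in dKO-8 and at 23.2, 28.2 and 28.7 CPM in dKO-19 (log2 fold change 4.11, SE 0.279). ALDH1A1 had 0, 1 and 4 counts in dKO-8 and 38, 38 and 66 counts in dKO-19, a ratio of 29.2 with a 95% exact binomial interval of 12.2 to 91.4. FBLIM1 had 2 counts in each dKO-8 library and 54, 40 and 51 in dKO-19, a ratio of 24.9 (11.2 to 68.9). These intervals cover counting error only.

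In the other direction, PVALB, the calcium-binding protein parvalbumin, had 103, 74 and 113 counts in dKO-8 and 0, 1 and 0 in dKO-19, a ratio of 282 (50.2 to 11200). HEY2, a transcriptional repressor downstream of Notch, had 157, 137 and 204 counts in dKO-8 and 0, 2 and 0 in dKO-19, a ratio of 242 (66.6 to 2000). Both genes were thus close to absent from dKO-19. EFS, an adaptor protein (log2 fold change -3.91, SE 0.291), ACSM1, an acyl-CoA synthetase (-2.64, SE 0.29), and GRIK3, a kainate receptor subunit (-2.60, SE 0.201), followed. In all, 28 called genes had at most 3 counts in every dKO-8 library and 24 had at most 3 in every dKO-19 library.

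The calls in each gene list below stand beside 6.51% of all genes tested, 3.1% higher and 3.4% lower. Counts of members at an unadjusted p under 0.05 stand beside 8296 of all 20009 genes. Androgen-responsive genes were divided. Of 31 tested, with HERC3 present under 2 identifiers, 7 were higher and 1 was lower in dKO-19, and the other 23 were not called, with a median log2 fold change of 0.11. With library size alone as the scaling 6 were higher and 3 lower. The kallikreins KLK2, KLK3 and KLK4, secreted serine proteases of the prostate of which KLK3 encodes prostate-specific antigen, were among the 7. KLK4 was at 3.55, 3.03 and 3.65 CPM in dKO-8 and at 27.2, 26.2 and 27.7 CPM in dKO-19, a log2 fold change of 2.98 (SE 0.113, adjusted p = 8.29e-29). KLK3 was low in both lines, at 2.06, 3.14 and 2.71 against 5.04, 6.06 and 6.50 CPM (log2 fold change 1.16, SE 0.166, adjusted p = 7.14e-08), and KLK2 at 1.82, 2.56 and 2.78 against 5.98, 4.57 and 6.63 CPM (1.26, SE 0.245, adjusted p = 8.16e-05). In each of the 3 kallikreins the libraries of the lines did not overlap. Counts of KLK4 were fractional in 47.9% of libraries.

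Because KLK2 and KLK3 are neighbouring paralogs that were higher together, the 250 bases upstream of their starts are shown (RefSeq, GRCh38.p14, chr19:50873189-50873438 and chr19:50854665-50854914, plus strand), with their longest shared run, of 80 bases, in capitals. Aligned at the offset of that run, 6 bases, they are the same at 185 of 244 positions, or 75.8%. The run is in 2 of 35116 upstream windows of this length, on either strand. AGAACA or its complement TGTTCT, the half-site of steroid hormone response elements, is in 12.4% of the windows, that of KLK3 among them, and is not in the KLK2 window or either KLK4 window.
KLK2: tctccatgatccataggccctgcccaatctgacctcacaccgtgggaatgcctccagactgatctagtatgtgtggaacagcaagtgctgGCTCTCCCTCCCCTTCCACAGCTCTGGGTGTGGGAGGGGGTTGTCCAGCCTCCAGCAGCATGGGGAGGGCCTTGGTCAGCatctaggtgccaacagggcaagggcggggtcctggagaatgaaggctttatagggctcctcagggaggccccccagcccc
KLK3: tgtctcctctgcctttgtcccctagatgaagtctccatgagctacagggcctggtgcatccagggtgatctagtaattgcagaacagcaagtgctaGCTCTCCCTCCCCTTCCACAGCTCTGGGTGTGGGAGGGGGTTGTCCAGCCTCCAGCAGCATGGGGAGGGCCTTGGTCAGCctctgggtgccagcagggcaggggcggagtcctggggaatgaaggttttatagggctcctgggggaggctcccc
A match describes these letters and not a bound site.

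Of the other androgen-responsive genes, the lipid phosphatase PLPP1 (log2 fold change 0.92), the organic anion transporter ABCC4 (0.84), the prostate-enriched transporter SLC45A3 (0.72) and the metalloreductase STEAP2 (0.65) were also higher in dKO-19. Under scaling by library size alone STEAP2 fell to 0.57, below the fold limit. FKBP5, a chaperone cofactor of steroid receptors, had a log2 fold change of -0.48 and TMPRSS2, a serine protease, of -0.54, both short of 1.5-fold.

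Steroid receptors and luminal transcription factors were mostly lower in dKO-19 where they were called, but the list as a whole leaned little. Of 18 tested, 5 were lower, 1 was higher and 12 were not called. Log2 fold changes were positive in 8 and negative in 10, with a median of -0.09. The ETS factors SPDEF, EHF and ELF3 had log2 fold changes of -0.82 (SE 0.047), -0.80 (SE 0.0546) and -0.72 (SE 0.0713). EHF, for instance, was at 201, 199 and 197 CPM in dKO-8 and at 114, 116 and 113 CPM in dKO-19. NR3C1, the glucocorticoid receptor (-0.73), and TRPS1, a GATA-type repressor (-0.74), were lower as well, and ETV1, another ETS factor, was higher (0.61), a call that did not hold with library size alone (0.54). The pioneer factor FOXA1 (-0.27), at a mean of 1147 and 954 CPM, and HOXB13 (-0.03) were not called. Counts of ELF3 were fractional in 45.8% of libraries. Of 15 genes for making and conjugating androgens, 1 was called, SRD5A1, a steroid 5-alpha-reductase, at -0.60 (SE 0.0469). The fitted median of that list was -0.16, and 0.00 with the 2 members near 0 counts set to their bound.

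Of 15 antigens that serve as targets of prostate cancer therapies, 4 were higher in dKO-19 and none was lower. FOLH1, prostate-specific membrane antigen, was at 6.43, 5.91 and 5.10 CPM in dKO-8 and at 29.5, 29.5 and 27.7 CPM in dKO-19 (log2 fold change 2.32, SE 0.0916, adjusted p = 1.39e-28). STEAP1 was at 33.6 to 36.4 against 62.9 to 65.7 CPM (0.88, SE 0.0633), and PSCA at 118 to 122 against 203 to 218 CPM (0.81, SE 0.117), with STEAP2 as above. The median of the list was 0.23, set against -0.003 for all genes.

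**Figure D2:**
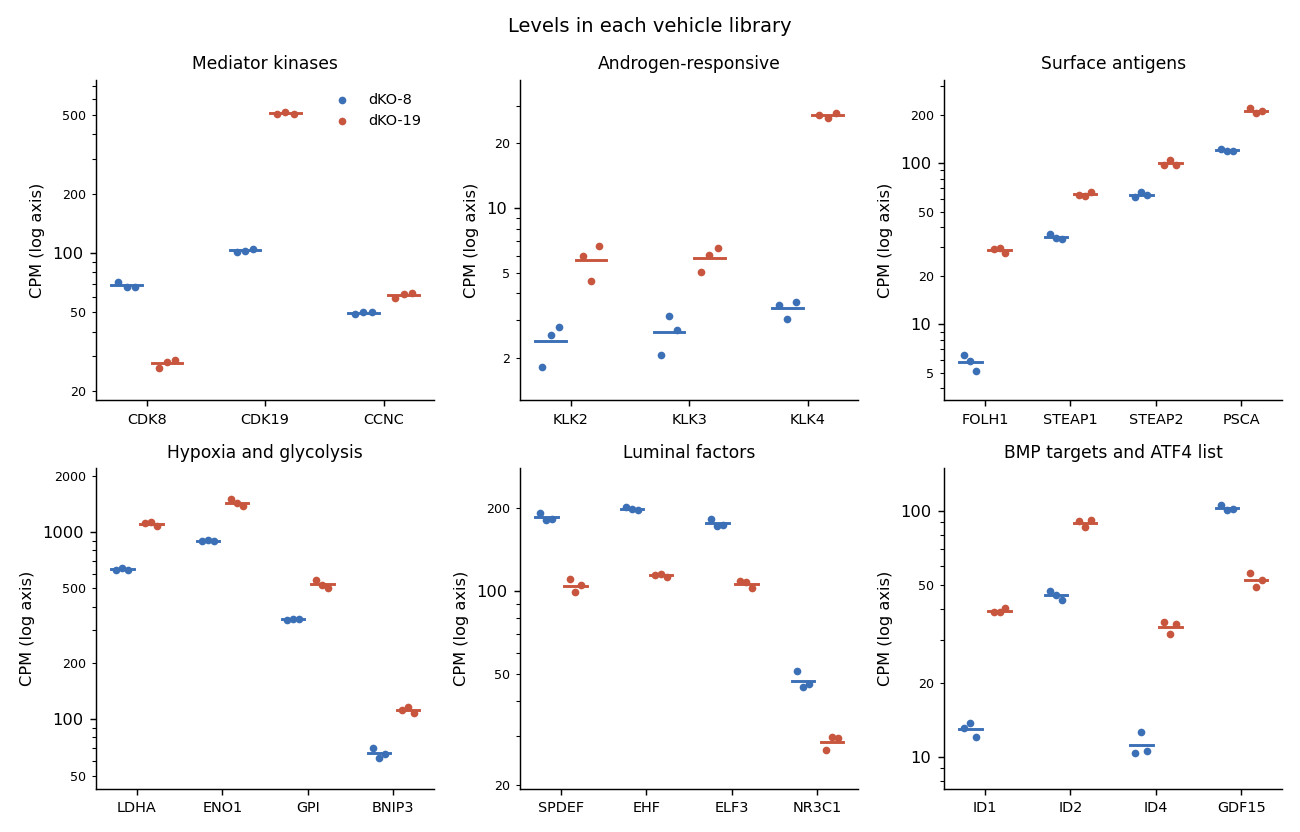
Levels of 22 named genes in CPM on a log axis, with 1 point per vehicle library (blue dKO-8, red dKO-19) and a bar at the mean of 3. In each of the genes the 3 libraries of one line lie wholly above the 3 of the other; KLK4 stands at 3.03 to 3.65 CPM in dKO-8 and 26.2 to 27.7 CPM in dKO-19.

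Hypoxia and glycolysis genes leaned the same way. Of 25 tested, 6 were called higher in dKO-19 and none lower, 22 had a positive log2 fold change, and the median was 0.39. LDHA, lactate dehydrogenase A, was at 629, 640 and 627 CPM in dKO-8 and at 1117, 1130 and 1079 CPM in dKO-19 (0.81, SE 0.0679, adjusted p = 1.8e-12). ENO1, enolase, was at 895 to 907 against 1372 to 1492 CPM (0.67, SE 0.0557), and GPI, glucose-6-phosphate isomerase, at 339 to 343 against 502 to 552 CPM (0.62, SE 0.0508). BNIP3, a mitophagy receptor induced by hypoxia (0.77), the phosphofructokinase PFKP (0.81) and the aldolase ALDOC (0.66) were the remaining 3. GAPDH (0.54), PKM (0.48) and TPI1 (0.40) came close to the fold limit without reaching it, whereas VEGFA (-0.01) and SLC2A1 (-0.00), classical targets of hypoxia-inducible factor, stood at no difference. Scaling by library size alone took GPI to 0.55 and ALDOC to 0.58, below the limit. Counts were fractional in 68.8% of libraries for GPI, 56.2% for PFKP, 52.1% for ENO1 and 33.3% for LDHA.

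ACGTG, a core form of the hypoxia response element, on either strand, was looked for in the upstream windows of these 6 genes, and 18.5% of all 35116 windows hold it. GPI, BNIP3 and ALDOC have it, as do 1 of the 2 windows of LDHA and 1 of the 4 of PFKP, and that of ENO1 does not. The windows in which matches on opposite strands overlap as CACGTG are shown (GRCh38.p14, LDHA chr11:18394313-18394562 plus strand, BNIP3 chr10:131981924-131982173 minus strand, ALDOC chr17:28576896-28577145 minus strand), with matches on either strand in capitals.
LDHA: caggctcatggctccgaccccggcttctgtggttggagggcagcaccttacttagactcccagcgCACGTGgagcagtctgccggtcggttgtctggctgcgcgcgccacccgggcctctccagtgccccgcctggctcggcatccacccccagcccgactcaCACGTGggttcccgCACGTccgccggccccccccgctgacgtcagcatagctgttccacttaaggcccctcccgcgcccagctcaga
BNIP3: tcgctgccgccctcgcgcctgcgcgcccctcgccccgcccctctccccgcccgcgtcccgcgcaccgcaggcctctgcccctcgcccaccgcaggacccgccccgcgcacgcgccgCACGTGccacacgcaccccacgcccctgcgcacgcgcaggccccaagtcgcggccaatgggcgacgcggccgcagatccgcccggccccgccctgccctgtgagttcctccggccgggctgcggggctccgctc
ALDOC: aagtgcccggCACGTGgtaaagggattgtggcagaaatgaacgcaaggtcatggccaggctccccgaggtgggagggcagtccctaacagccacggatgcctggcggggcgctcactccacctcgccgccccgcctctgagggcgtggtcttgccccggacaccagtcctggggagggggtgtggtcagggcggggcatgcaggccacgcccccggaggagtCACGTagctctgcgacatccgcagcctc
Binding was not measured in this series.

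No gene of the growth-related lists was called. The counts at an unadjusted p under 0.05 given here stand beside 8296 of all 20009 genes, in either direction. Of 27 genes of MYC and ribosome biogenesis none was called by edgeR or DESeq2, yet 24 had a positive log2 fold change, 23 were higher at an unadjusted p under 0.05 against 1 lower, and the median was 0.27. MYC was at a mean of 249 CPM in dKO-8 and 328 CPM in dKO-19 (0.40, SE 0.0481, adjusted p = 9.28e-10), and the nucleolar proteins NCL (0.43), NPM1 (0.43) and FBL (0.43) were similar. Of 24 cell division genes none was called either, with 22 positive, 19 higher and 2 lower at an unadjusted p under 0.05, and a median of 0.14. CDC20 (0.38) and CCNB1 (0.37), regulators of mitotic entry and exit, had the largest log2 fold changes in that list. Of 24 DNA replication genes none was called by either program (17 positive and 7 negative, median 0.05, 10 higher and 5 lower at an unadjusted p under 0.05). Scaling by library size alone lowered log2 fold changes, as for STEAP2 from 0.65 to 0.57. The medians and signs of these lists were not computed under that scaling.

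Genes of the ATF4 stress response, which supplies amino acids and folates when translation or amino acids run short, lay on the other side. Of 29 tested 3 were called lower in dKO-19 and none higher, 28 had a negative log2 fold change, and the median was -0.24. GDF15, a stress-induced cytokine, was at 106, 101 and 102 CPM in dKO-8 and at 56.3, 49.0 and 52.6 CPM in dKO-19 (-0.97, SE 0.131, adjusted p = 3.3e-07). SESN2 (-0.62, SE 0.0921) and TRIB3 (-0.60, SE 0.0716) were the other members called. TRIB3 was close to the fold limit and was at -0.57 without dKO-8 replicate 1 and at -0.56 without dKO-19 replicate 2, below it. ATF4 itself was at -0.12, and the exception to the sign was ALDH18A1, an enzyme of proline synthesis, at 0.51. Of 18 cytosolic tRNA synthetases, several of which depend on ATF4, none was called by edgeR or DESeq2 (median -0.08, 5 higher and 9 lower at an unadjusted p under 0.05), nor of 20 endoplasmic reticulum chaperones (0.10, 10 and 4). Of 17 amino acid transporters, the glutamate transporter SLC1A3 (1.81) and the cationic carrier SLC7A2 (0.98) were higher, and SLC7A8 (-0.90, fractional in 68.8% of libraries) and the glycine transporter SLC6A9 (-0.64) lower.

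Immune genes were called in both directions. Of 32 interferon-stimulated genes 2 were higher and 4 were lower in dKO-19. IFI44L was at 0.144, 0.209 and 0.118 CPM in dKO-8 and at 3.34, 3.13 and 1.75 CPM in dKO-19, a ratio of 17.7 in counts (9.4 to 37.6), and HERC5, an ISG15 ligase, had a log2 fold change of 1.21. OAS3, an antiviral oligoadenylate synthetase, was at 66.3 to 70.1 CPM in dKO-8 and 36.2 to 39.6 CPM in dKO-19 (-0.85, SE 0.0609), and lower with it were RSAD2 (-0.91), DDX60 (-1.35) and ISG20 (-0.72, fractional in 35.4% of libraries). Of 14 genes of MHC class I presentation, 3 were lower, none higher and 11 not called, with 5 positive and 9 negative log2 fold changes and a median of -0.25. The 3 lower genes were the immunoproteasome subunit PSMB8, at 2.69, 2.61 and 3.53 against 0.565, 0.924 and 0.829 CPM (-1.94, SE 0.251), HLA-B (-0.76, fractional in 45.8% of libraries) and the peptide-trimming ERAP1 (-0.59). ERAP1 missed the fold limit without dKO-8 replicate 1 (-0.57), dKO-8 replicate 3 (-0.57) or dKO-19 replicate 1 (-0.50). Of 16 genes of the NF-kappaB pathway, the long noncoding RNA NKILA, an inhibitor of that pathway, was at 20.5 to 21.3 against 52.0 to 56.5 CPM (1.36, SE 0.0729), and the cytokine LIF was higher as well (0.87).

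Of 27 genes of TGF-beta and BMP signalling 5 were higher, 1 was lower and 21 were not called, with 13 positive and 14 negative log2 fold changes. ID1, ID2 and ID4, inhibitors of basic helix-loop-helix factors that BMP induces, were at means of 12.9, 45.4 and 11.2 CPM in dKO-8 and 39.4, 89.8 and 33.9 CPM in dKO-19. The log2 fold changes were 1.61 (SE 0.252, adjusted p = 4.16e-06), 0.98 (SE 0.155) and 1.61 (SE 0.229), and no library of one line reached the range of the other. Their SEs were larger than those of other genes at this level. The SEs come from the shared fit of 48 libraries, in which these genes scattered more in other lines. ID2 had an SD of 2.04 CPM in dKO-8, 2.98 in dKO-19 and 27.2 in Rv1-Luc under vehicle in FBS. For ID4 these were 1.23, 2.11 and 18.5 CPM. The BMP-pathway SMAD9 (0.90) and the receptor TGFBR2 (0.75) were also higher, and the co-receptor TGFBR3 (-0.63) was lower, the last at -0.56 and below the limit without dKO-19 replicate 2. The median of the whole list was -0.00. Counts of ID1 were fractional in 50% of libraries.

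HBEGF, a ligand of the EGF receptor, was at 1.63, 1.57 and 2.12 CPM in dKO-8 and at 11.9, 11.8 and 12.7 CPM in dKO-19 (2.75, SE 0.143, adjusted p = 1.36e-23). The receptor ERBB2 was lower, at 168 to 173 against 92.6 to 99.3 CPM (-0.81, SE 0.0425), with counts fractional in 50% of libraries, and the other 10 genes of that list were not called. Of 23 AP-1 and immediate-early genes, SPRY4 (1.39) and DUSP4 (0.83), feedback inhibitors of MAP kinase signalling, were higher and the transcription factor KLF4 (-1.25, SE 0.0648) was lower. Of 25 Wnt pathway genes, WNT10B (0.74), RNF43 (0.67) and DKK1 (0.67) were higher and the nuclear effectors LEF1 (-0.82) and TCF7 (-0.70) lower. DKK1, at 2.31 to 4.67 CPM, lost its call without dKO-8 replicate 1 (0.73, adjusted p = 0.0113), 2 (0.69, 0.015) or 3 (0.59, 0.0476) and without dKO-19 replicate 2 (0.70, 0.0122) or 3 (0.56, 0.0563). Counts of WNT10B were fractional in 54.2% of libraries and those of RNF43 in 58.3%.

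Antioxidant genes under NRF2 control gave 2 calls of 17, PRDX1 as above and GCLC, the catalytic subunit of the first enzyme of glutathione synthesis, at 78.5 to 81.8 against 189 to 200 CPM (1.29, SE 0.0687). Of epithelial keratins and junction genes 3 of 21 were higher, which were the desmosomal cadherin DSC2 (1.30), villin VIL1 (1.87) and keratin KRT19 (0.67, fractional in 37.5% of libraries). Mesenchymal and matrix genes split, with tenascin TNC (1.54) and COL4A2 (0.79) higher and COL6A1 (-0.86) and TWIST1 (-0.60) lower of 17. TWIST1 was at -0.55 without dKO-8 replicate 1 and at -0.54 without dKO-19 replicate 2, below the limit. So did neuroendocrine genes, with SYP (0.61) higher and SNAP91 (-0.78) and PCSK1 (-1.51) lower of 16. SYP was at 0.57 without dKO-19 replicate 3, below the limit.

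Calls at low counts were the least firm. PCSK1, with at most 20 counts per library, lost its call without dKO-8 replicate 1 (-1.51, adjusted p = 0.0199) or 2 (-1.26, 0.06) and without dKO-19 replicate 1 (-1.30, 0.0517), 2 (-1.74, 0.0113) or 3 (-1.49, 0.0319). Of 12 cancer-testis antigens 1 was called, MAGEC2 (1.52), with at most 18 counts per library, and it was lost without dKO-8 replicate 1 (1.66, adjusted p = 0.0181), 2 (1.55, 0.0241) or 3 (1.34, 0.0579) and without dKO-19 replicate 2 (1.49, 0.0259) or 3 (1.22, 0.0953). Of 15 heat shock genes 1 was called, HSPA1A (0.89), whose counts were fractional in 83.3% of libraries, and it was lost without dKO-8 replicate 1 (0.80, adjusted p = 0.0331) or 2 (0.85, 0.0226) and without dKO-19 replicate 1 (0.83, 0.031) or 3 (0.86, 0.0261). The median of the heat shock list was 0.27. Of 12 polyamine genes, ARG2, an arginase, was called (0.73), at 0.58 and below the limit without dKO-19 replicate 3. FADS1 was the 1 call of 13 fatty acid synthesis genes. In these lists of 12 to 15 genes, 1 call is near the 6.51% called of all genes and says little about the list. None of 24 sterol synthesis genes and none of 7 metallothioneins was called by edgeR or DESeq2, with 9 and 2 higher and 1 and 0 lower at an unadjusted p under 0.05, and medians of 0.08 and 0.42.

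**Figure D3:**
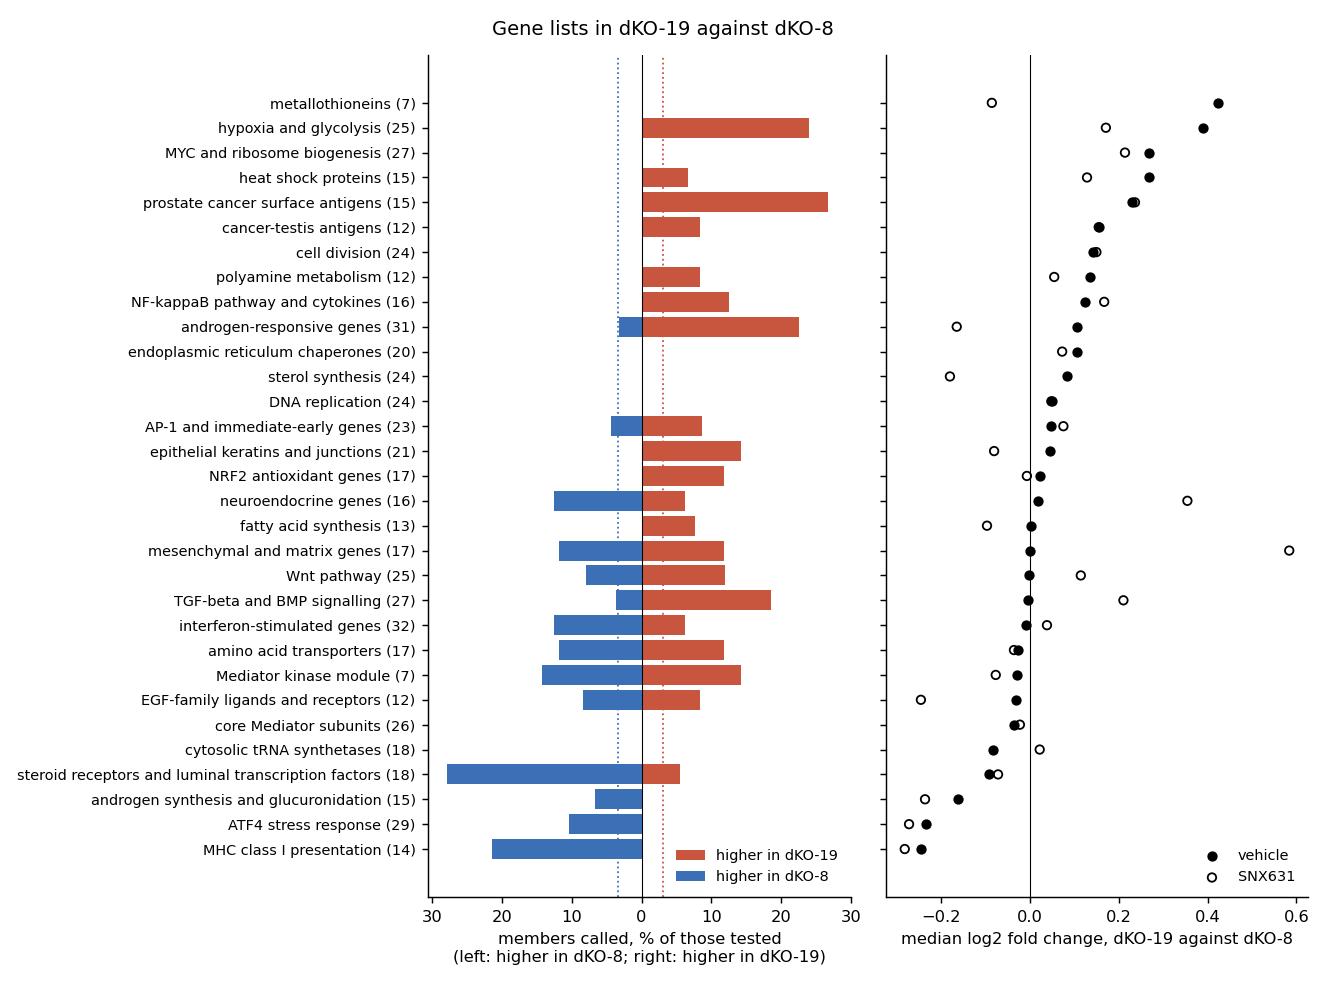
Left, the share of tested members called in each of 31 gene lists (number tested in brackets), to the right for genes higher in dKO-19 and to the left for genes higher in dKO-8, with dotted lines at the shares of all genes, 3.1% and 3.4%. Right, the median log2 fold change of each list under vehicle (filled) and, from other libraries of the same lines, under SNX631 (open); hypoxia and glycolysis fell from 0.39 to 0.17, and androgen-responsive genes went from 0.11 to -0.17.

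Whether the differences between the lines were there when both kinases were inhibited was examined in 6 other libraries of dKO-19 and dKO-8, treated with SNX631. There 1482 genes (7.41%) were called between the lines, 816 higher (4.08%) and 666 lower (3.33%) in dKO-19. Of the 1302 genes called under vehicle, 96.2% had the same sign under SNX631, against 73.1% of all genes tested. Of the 1302, 775 were called in the same direction, which is 59.5% of the vehicle calls and 52.3% of the SNX631 calls, against 2 called in the opposite direction. Across the 1302 genes Pearson's r was 0.889, Spearman's rho 0.885 and the slope 0.781. Genes are not independent replicates, the 2 contrasts share their lines but no library, and the genes were chosen on 1 of the contrasts. KLK4 (2.98 under vehicle, 2.79 under SNX631), FOLH1 (2.32 and 2.32), STAT6 (2.70 and 3.02), HBEGF (2.75 and 2.82) and CDK8 (-1.31 and -1.30) are examples of differences that stayed at their size.

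The difference between the 2 contrasts was itself tested by an interaction term, which was called for 177 genes (0.885%) of all those tested, 61 upward (0.305%) and 116 downward (0.58%), and for 72 of the 1302, 48 of them with a larger difference under vehicle. The 1302 were chosen on the vehicle libraries, which by itself favours calls, and larger differences under vehicle, among them. F3 was 1.74 under vehicle and 0.93 under SNX631 (difference 0.81). TAGLN2 (-1.76 and -1.12) and SPOCK1 (-1.85 and -1.05) were likewise further apart under vehicle. NKILA, at 1.36 under vehicle, was at 0.27 under SNX631, as its level fell to a mean of 10.4 CPM in dKO-8 and 12.6 CPM in dKO-19. PSCA went from 0.81 to -0.14, SLC45A3 from 0.72 to -0.57 and ALDOC from 0.66 to -0.30. CAPN2 (-2.16 and -2.96), EPDR1 (1.67 and 2.29), DKK1 (0.67 and 2.47) and PFKP (0.81 and 1.54) were further apart under the inhibitor. KLK3 (1.16 and 0.15), LDHA (0.81 and 0.34) and GPI (0.62 and 0.24) were smaller under SNX631 and not called there, but their interaction terms were not called.

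The kinase-dead lines dKO-19M and dKO-8M were compared in 6 further libraries. They are separate transduced populations, and their kinase transcripts were at other levels: CDK8 was at a mean of 122.6 CPM in dKO-8M and 68.6 CPM in dKO-8, and CDK19 at 332 CPM in dKO-19M and 510.0 CPM in dKO-19. Activity, level and history therefore cannot be told apart between the active and the kinase-dead pair. In them 1439 genes (7.19%) were called, 777 higher (3.88%) and 662 lower (3.31%) in dKO-19M, and 1198 (675 and 523) without the library named next. Library dKO-19M replicate 1 stood apart from its replicates, where a chi-square test of the counts gave 17.7 and 17.1 for each degree of freedom, and 1.45 for the pair of the others, and values without it are given in brackets or beside the others. CDK8 was lower (-2.17, and -2.16 without it) and CDK19 higher (1.43, and 1.50 without it) in dKO-19M, as in the active lines. Of the 1302 genes called between the active lines, 60.3% had the same sign between the kinase-dead lines (58.9% without the library), against 56.8% of all genes tested. In the same direction 257 were called (233), which is 19.7% of the vehicle calls and 17.9% of the kinase-dead calls (17.9% and 19.4%), and in the opposite direction 121 (114). Pearson's r was 0.238 with and without the library.

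The interaction term of active against kinase-dead lines was called for 1680 genes (8.4%), 762 upward (3.81%) and 918 downward (4.59%), or 1569 (724 and 845) without the library, and for 676 of the 1302, or 646. The 1302 genes were chosen on libraries that enter this term, which by itself raises the share called among them. KLK4 was 2.98 between the active lines and -1.78 between the kinase-dead lines (-1.81 without the library). CAPN2 went from -2.16 to 2.06, GRIK3 from -2.60 to 6.15 (the latter against only 0.0654 to 0.214 CPM in dKO-8M) and KLF4 from -1.25 to 1.07, each called in both contrasts in opposite directions. Without the library the kinase-dead values were 2.09, 6.19 and 1.08. FOLH1 (2.32 and -0.23), HBEGF (2.75 and -0.00), VDAC2 (1.52 and 0.15), TBX3 (1.30 and -0.47) and NAMPT (-1.15 and 0.40) were called between the active lines but not between the kinase-dead lines, and their interaction terms were called. Without the library the kinase-dead values of these 5 were -0.23, -0.13, 0.10, -0.42 and 0.40. STAT6 (2.70 and 1.03), PRDX1 (1.61 and 0.75), GLUL (0.85 and 0.66), SPRY4 (1.39 and 1.79), VIL1 (1.87 and 2.67) and ZBTB7C (-2.25 and -1.83) were called in the same direction in both. Without the library these 6 were at 1.06, 0.66, 0.67, 1.87, 2.69 and -1.94 between the kinase-dead lines, and the calls of these genes in both tests were the same. GLUL, SPRY4 and ZBTB7C had no interaction call, and those of STAT6, PRDX1 and VIL1 were called. The median of the ATF4 list was -0.24 between the active and 0.30 between the kinase-dead lines, and that of MHC class I genes -0.25 and 0.44 (0.26 and 0.37 between the kinase-dead lines without the library). HLA-B and PSMB8 of the latter list lie at 30 to 40 Mb of chromosome 6. There the median of all 158 genes at a mean of 1 CPM or more was 0.378 between the kinase-dead and -0.01 between the active lines. The lean was not confined to that window. Over all 726 such genes of chromosome 6 the medians were 0.262 and 0.0. Chromosome 8 was at -0.26 between the kinase-dead and -0.075 between the active lines, chromosome 18 at -0.181 and -0.025, and chromosome 22 at -0.172 and 0.001. The part of these leans in the values of single genes there was not tested. Whether the MHC class I median differs from that of its region was not tested. With the library left out, the interaction call was lost for BNIP3 (0.69, adjusted p = 0.0114), ID4 (1.13, 0.0156), KLK2 (1.93, 0.0184), SMAD9 (0.84, 0.0106) and MED12L (0.65, 0.0257), and the call between the kinase-dead lines for PSMB8 (0.79, 0.0147), DDX60 (-0.69, 0.0225) and ACSM1 (0.75, 0.0345).

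**Figure D4:**
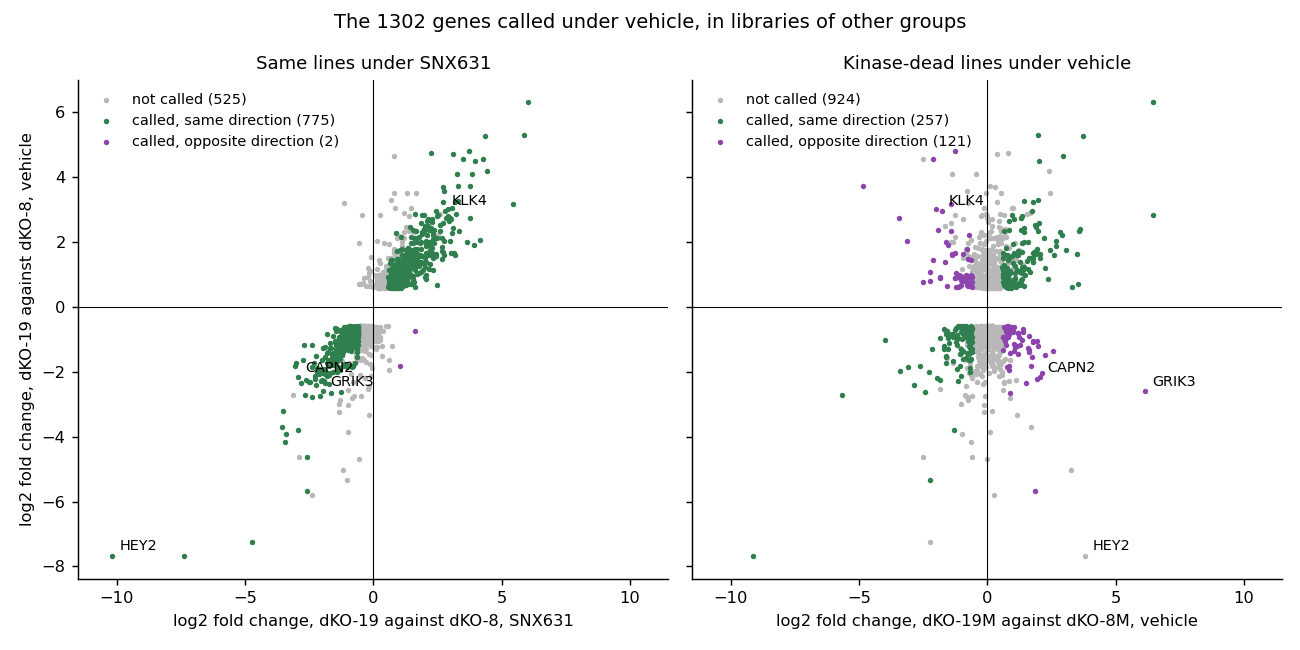
The 1302 genes called under vehicle, with the log2 fold change of dKO-19 against dKO-8 under vehicle on both y axes and the same contrast in other libraries on the x axes (left, SNX631, right, the kinase-dead lines). Green points were called in the same direction (775 left, 257 right), purple in the opposite direction (2 left, 121 right), grey not called; the gap around 0 on the y axis is the 1.5-fold limit. HEY2 had under 0.1 CPM on average in both kinase-dead lines, so that its place on the right rests on single counts.

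The 1302 genes were also set beside all 6 lines in FBS under vehicle. All 3 dKO-8 libraries lay above or below all 15 libraries of the other lines in 31.3% of the 1302 genes (211 highest, 196 lowest), and in 7.41% of all genes. The 3 dKO-19 libraries did so in 15.5% (125 highest, 77 lowest) and in 4.15% of all genes. An outer place was not particular to the pair. Rv1-WT had it in 27.6% of the 1302 genes and 22.3% of all genes, and Rv1-Luc in 15.1% and 15.7%. For dKO-8M the shares were 6.84% and 7.63%, and for dKO-19M 9.14% and 5.96%. Genes called between the lines are likelier to hold an outer line by the way they were chosen. VDAC2, F3 and HBEGF had their highest level in dKO-19, with means of 158 to 184 CPM for VDAC2 and 1.77 to 2.66 CPM for HBEGF in the 5 other lines. NAMPT and CAPN2 had theirs in dKO-8, at a mean of 559.5 and 147 CPM, with 154 to 261 CPM and 9.89 to 68.0 CPM elsewhere. STAT6, FOLH1 and PRDX1 had their lowest in dKO-8. In Rv1-WT and Rv1-Luc STAT6 was at 100 and 163 CPM and FOLH1 at 346 and 400 CPM, far above both dKO-19 (30.3 and 28.9 CPM) and dKO-8 (4.64 and 5.81 CPM). KLK4 was at 121 CPM in Rv1-WT and 33.4 CPM in Rv1-Luc, next to 27.0 CPM in dKO-19. ZBTB7C was at 0.600 CPM in Rv1-WT and 1.20 CPM in Rv1-Luc, 31.5 CPM in dKO-8 and 6.64 CPM in dKO-19.

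**Figure D5:**
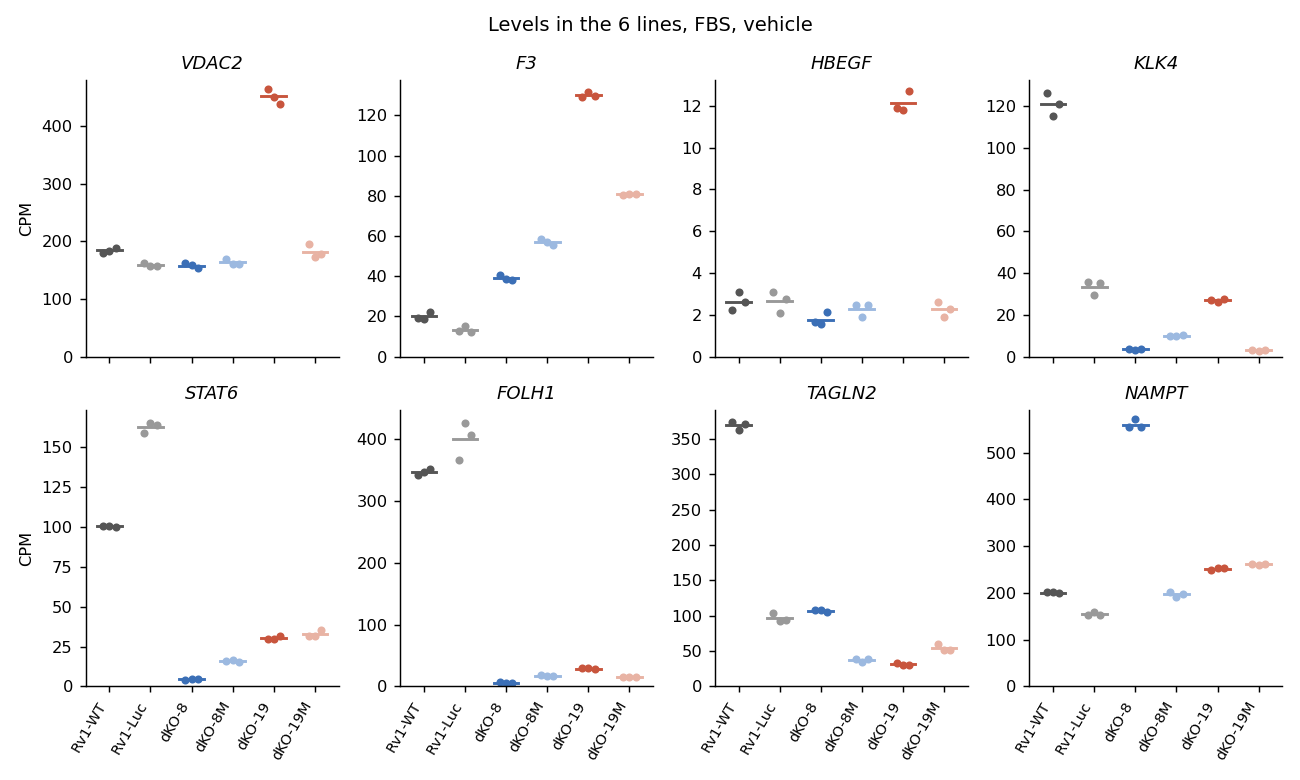
Levels of 8 named genes in CPM (linear axes from 0) in the 6 lines in FBS under vehicle, with 1 point per library and a bar at the mean of 3. VDAC2, F3 and HBEGF are highest in dKO-19 and NAMPT in dKO-8, whereas STAT6 and FOLH1 are far below Rv1-WT and Rv1-Luc in both dKO-8 and dKO-19.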

How the data were processed

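Total RNA of 22Rv1 derivatives was sequenced from strand-specific libraries. Per the submitters' processing notes FastQC, cutadapt 2.8, STAR 2.7.2b, featureCounts and Subread 2.0.3 were used with GRCh38.p13 and GRCm39. The authors deposited per-gene values that were handled here like expected counts. Of the values above 0, 81.6% were whole, and the counting setting behind the fractions is not given in the sources used here. The steps after counting, and the program behind the study's own tests, are not given in the sources used here.

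The expected counts were rounded. Of 61817 entries, 2 of them transgenes, 20009 passed edgeR's filter (at least 10 counts in enough libraries and 15 in all). All 48 libraries, in 16 groups of 3, were fitted with TMM scaling and edgeR's quasi-likelihood test (edgeR 4.0.16, limma 3.58.1, R 4.3.3; 32 residual degrees of freedom, biological coefficient of variation 4.2%), with Benjamini-Hochberg adjustment over all genes. DESeq2 1.42.0 was an alternative, with others of scaling, filter, threshold, depth, block and libraries left out. The pipeline was tested on simulated data. Replicate numbers were not used to pair libraries. Cells were treated in wells, but the labels do not say how far the 3 libraries of a group are separate cultures. The p-values measure the spread within groups over all 48 libraries, which may be technical. They therefore carry scatter of lines outside the comparison. For vehicle replicates in FBS, the chi-square values named above were 1.56 to 2.08 in dKO-8 and 1.71 to 2.82 in dKO-19. They reached 9.71 in Rv1-Luc and 17.7 in dKO-19M. A fit of only the libraries of the comparison under vehicle gave 1313 calls. Intervals and floors (3 counts per library) cover counting error only.

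Named genes were the kinase module, then, among called genes with a symbol, a mean of at least 1 CPM and groups that did not overlap, the 15 in each direction with the lowest p and the 5 with the largest fold change, and of each list up to 4 called members with the lowest p and members needed to describe it. Some genes that this rule names are not reported here. The groups, members and lists were chosen with earlier results of these data known. Upstream windows came from RefSeq (GRCh38.p14).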

Additional observations from a re-analysis of the deposited data

Results flagged for a closer look

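For 2 sets of genes the contrast of dKO-19 with dKO-8 under vehicle differed, by an interaction term of the edgeR quasi-likelihood test, from the same contrast in other libraries. It differed from that of the kinase-dead lines for 1680 genes and from that under SNX631 for 177. Against the kinase-dead lines, the difference of log2 fold changes for genes higher in dKO-19 was 6.66 for FBLIM1, 5.49 for ABCG2, 4.76 for KLK4, 4.54 for IFI44L, 2.56 for FOLH1 and 2.5 for PLEKHB1. It was 1.77 for TBX3, 1.67 for STAT6, 1.36 for VDAC2, 1.24 for F3, 1.15 for NPR3 and 1.05 for EPDR1. The smallest were 0.88 for CDK19, 0.86 for PRDX1, 0.83 for STOM, 0.68 for FADS1 and 0.61 for CDKN1A. CDK8 (0.87) and MED12L (0.81) also had positive differences.

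For genes higher in dKO-8 the difference was -11.48 for HEY2, -8.75 for GRIK3, -4.23 for CAPN2, -3.51 for ACSM1, -2.92 for EFS, -2.61 for SPOCK1, -2.31 for TAGLN2 and -2.24 for CERK. It was -1.61 for PPP2R2C, -1.56 for NAMPT, -1.53 for GOLM1, -1.5 for NFIX, -1.35 for ANOS1, -1.32 for PLXNA2 and -0.96 for IFT27. Fitted values of genes near 0 counts in a group, such as HEY2 in both kinase-dead lines, depend on the prior count and are no bound.

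Against SNX631 the difference was 0.81 for F3 and 0.79 for CAPN2, and -0.62 for EPDR1, -0.65 for TAGLN2 and -0.81 for SPOCK1.

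The blasticidin resistance transcript BlastR of the lentiviral vector, used in no comparison, had 436 to 646 counts in the 6 libraries and 0 in Rv1-WT. Groups of 3 libraries were not examined for single outlying values.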

How the results depend on the processing

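The comparison under vehicle gave 1302 calls and between 1155 and 1207 when 1 library was left out. The ranges were 1337 to 1366 for the contrast under SNX631, 1198 to 1474 for the kinase-dead lines, 1554 to 1695 for active against kinase-dead, and 141 to 176 for vehicle against SNX631. At an FDR under 0.05 with no fold limit the 5 counts, in that order, were 6610, 6649, 7632, 5915 and 955, and in a test against 1.5-fold they were 444, 555, 434, 575 and 16. Thinned to the smallest library, the last was 117. Under the other settings all 5 counts stayed within 1.5 times, and no named gene that was called changed sign. Sign changes of genes not called were not recorded. The replicate block gave 1298 calls under vehicle and ended no call of a named gene. Same-numbered libraries had correlations of -0.016 to 0.035, and 2 of 6 libraries correlated best with their own number. Of 108 named genes called, 94 kept the call in every alternative other than the test against 1.5-fold, in which 43 lost it. Genes at a few counts per library are limited by depth.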

Other observations

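Differences of the called genes aside, some chromosome stretches leaned in 1 direction. In 250 windows of 10 Mb with at least 20 genes at a mean of 1 CPM or more, the median log2 fold change of dKO-19 against dKO-8 ranged from -0.231 to 0.255, and 214 windows lay within 0.1 of 0. On chromosome 17 the window of 0 to 10 Mb had a median of 0.246 over 177 genes, 83.6% of them positive, with 0.183 under SNX631 and 0.18 between the kinase-dead lines. The windows from 60 to 70 and 70 to 80 Mb had medians of -0.172 and -0.137, with -0.185 and -0.199 under SNX631 and -0.185 and -0.043 between the kinase-dead lines. On chromosome 8 the windows of 30 to 40 and 40 to 50 Mb had medians of 0.145 and 0.151, which were 0.164 and 0.157 under SNX631 and -0.112 and -0.149 between the kinase-dead lines, and those of 90 to 100 and 120 to 130 Mb of -0.206 and -0.231, which were -0.13 and -0.232 under SNX631 and -0.348 and -0.195 between the kinase-dead lines. These windows were picked after their values were seen, copy number was not measured, and the values carry no test.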
